A study of Mus musculus with 2 samples.

Results

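Syndecans and glypicans are the cell-surface families that carry heparan sulfate. All 10 genes of the 2 families that were chosen by symbol for this account, Sdc1 to Sdc4 and Gpc1 to Gpc6, had a row in the expression tables, out of 21829 genes in all. The tables hold 2 libraries of mouse C2C12 myoblasts in growth medium, 1 labelled WT and 1 labelled GNE KO, hereafter the libraries labelled WT and KO. C2C12 is an immortalised myoblast line, and the KO cells were made from it with Cas9 and a guide RNA against Gne, the bifunctional enzyme that starts sialic acid synthesis. Cells of the KO line were grown from a single isolated cell, so that the line is 1 clone, and no other allele or treatment distinguishes the groups in the sample descriptions. With 1 library per genotype, no difference has a replicate check and no p-value was computed.

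Syndecans are transmembrane core proteins with a short cytoplasmic tail, and glypicans are core proteins held on the outer membrane by a glycolipid anchor. Both carry sulfated sugar chains that bind growth factors, morphogens and matrix proteins such as fibronectin. Syndecans act beside integrins at adhesion sites, and glypicans tune the signals of fibroblast growth factors, Wnts and Hedgehogs. In skeletal muscle, Sdc3 and Sdc4 are known surface markers of the satellite cell, the muscle stem cell, and heparan sulfate presents fibroblast growth factors and hepatocyte growth factor to myoblasts.

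The values were taken as FPKM, which counts fragments per length of transcript and per depth, so that levels can be set side by side between genes. Fold differences are on the scale of log2((KO + 1)/(WT + 1)), on which low genes look less different than they are, and "beyond 2-fold" means past 1 on it in either direction. Over both libraries 10542 genes reached a mean of 1 FPKM, the filter used throughout, and they had a median of 0.0061 and an interquartile range from -0.21 to 0.23. From the spacing of the lowest values, the library labelled WT was estimated to be 1.16 times as deep as the one labelled KO. The Gne message did not tell the libraries apart, at 6.67 FPKM in the library labelled WT and 7.34 FPKM in the one labelled KO. Of 7 myoblast markers, 4 passed the filter and 3 of these were beyond 2-fold lower in the library labelled KO. These were Des, at 97.6 and 3.84 FPKM, Myod1, at 59.972 and 0 FPKM, and Cdh15, at 16.6 and 0.701 FPKM, while Myf5 was beyond 2-fold higher, at 9.14 and 20.3 FPKM. The 7 summed to 183 FPKM against 24.9 FPKM, with Pax7 listed at 0 in both libraries and Myod1 listed at 0 in the one labelled KO. Of 7 fibroblast or mesenchymal markers, 4 passed and 2 were beyond 2-fold higher, Col1a1 at 9.66 and 273 FPKM and Postn at 0.440 and 33.9 FPKM. Pdgfrb was at 54.5 and 80.2 FPKM, and the 7 had sums of 75.7 and 401 FPKM, with Lum and Thy1 listed at 0 in both. Myod1, Cdh15 and Postn were under 1 FPKM in 1 library and passed the filter through the other. Endothelial markers summed to 0.010 and 0.028 FPKM, epithelial ones to 0.051 and 0.020 FPKM and leukocyte ones to 2.85 and 1.06 FPKM, the last from Cd68 alone. In bulk RNA, fewer cells of a type and less RNA per cell cannot be told apart, and with 1 clone and 1 library an effect of Gne and a difference between clones cannot be told apart either.

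To show where transcription of family members above 0 and of members listed at 0 is annotated to begin, the 250 bases before the annotated start are given for 4 genes. They come from RefSeq on GRCm38.p6, where 7 of the 10 members had an entry. Each runs 5′ to 3′ on the strand of its gene, and capitals mark every GC box, searched as GGGCGG on both strands with overlaps kept. The window of Sdc1 is chr12:8771146-8771395 on the plus strand, that of Sdc4 is chr2:164443189-164443438 on the minus strand, that of Gpc3 is chrX:52613975-52614224 on the minus strand and that of Gpc4 is chrX:52164924-52165173 on the minus strand.
Sdc1: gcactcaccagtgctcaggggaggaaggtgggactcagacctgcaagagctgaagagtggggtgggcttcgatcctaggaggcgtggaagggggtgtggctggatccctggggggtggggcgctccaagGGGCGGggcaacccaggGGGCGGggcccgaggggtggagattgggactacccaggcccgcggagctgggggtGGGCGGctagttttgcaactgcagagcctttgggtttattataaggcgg
Sdc4: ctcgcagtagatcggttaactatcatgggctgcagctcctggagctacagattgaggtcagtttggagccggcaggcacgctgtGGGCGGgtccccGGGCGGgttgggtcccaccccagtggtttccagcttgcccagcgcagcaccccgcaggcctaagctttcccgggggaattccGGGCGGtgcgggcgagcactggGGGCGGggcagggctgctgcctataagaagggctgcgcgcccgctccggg
Gpc3: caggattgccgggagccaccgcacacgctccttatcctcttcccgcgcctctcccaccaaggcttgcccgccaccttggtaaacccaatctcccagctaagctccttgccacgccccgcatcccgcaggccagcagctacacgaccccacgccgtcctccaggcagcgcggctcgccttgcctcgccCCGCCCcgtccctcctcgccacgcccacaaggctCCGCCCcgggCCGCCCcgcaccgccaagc
Gpc4: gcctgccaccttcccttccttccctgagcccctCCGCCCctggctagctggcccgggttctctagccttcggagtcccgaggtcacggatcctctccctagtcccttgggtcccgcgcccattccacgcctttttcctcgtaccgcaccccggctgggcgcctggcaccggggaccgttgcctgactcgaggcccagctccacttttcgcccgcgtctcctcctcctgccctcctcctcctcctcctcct

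All 7 member windows held at least 1 GC box, which 32.7% of the 32851 RefSeq windows of that length did. Sdc4 held 4, Sdc1 and Gpc3 held 3 each and Gpc4 held 1. CpG dinucleotides numbered 10 in the Sdc1 window, 19 in that of Sdc4, 25 in that of Gpc3 and 18 in that of Gpc4, against a median of 6 over all windows. Of the windows not printed, that of the expressed Sdc3 held the most, 32, and those of Gpc2 and Gpc5 held 19 and 12. The counts of the 3 expressed syndecans, from 10 to 32, thus spanned those of the 4 glypicans listed at 0. An E-box, searched as CANNTG, lay in 2 of the 7 windows and in 66.2% of all windows, and a TATAAA on either strand lay in 1 of 7 and in 12.4% of all. These matches describe letters only.

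Of the 10 members, 6 passed the filter, and each of the 6 was above 1 FPKM in both libraries. The other 4, Gpc2, Gpc3, Gpc4 and Gpc5, were listed at 0 in both. Among the 6, Gpc6 was the 1 member beyond 2-fold higher in the library labelled KO, where 2.84% of all genes past the filter were, and 0 members were beyond 2-fold lower, where 3.43% of all genes were. The 6 had a median log2 fold change of 0.061, with 4 higher and 2 lower. Of all genes past the filter, 50.7% were higher. Among the 4 higher members, Sdc1 and Sdc3, at 0.093 and 0.029, lay inside the interquartile range of all genes. Counts among 6 genes are too small to set against these background shares.

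**Figure D1:**
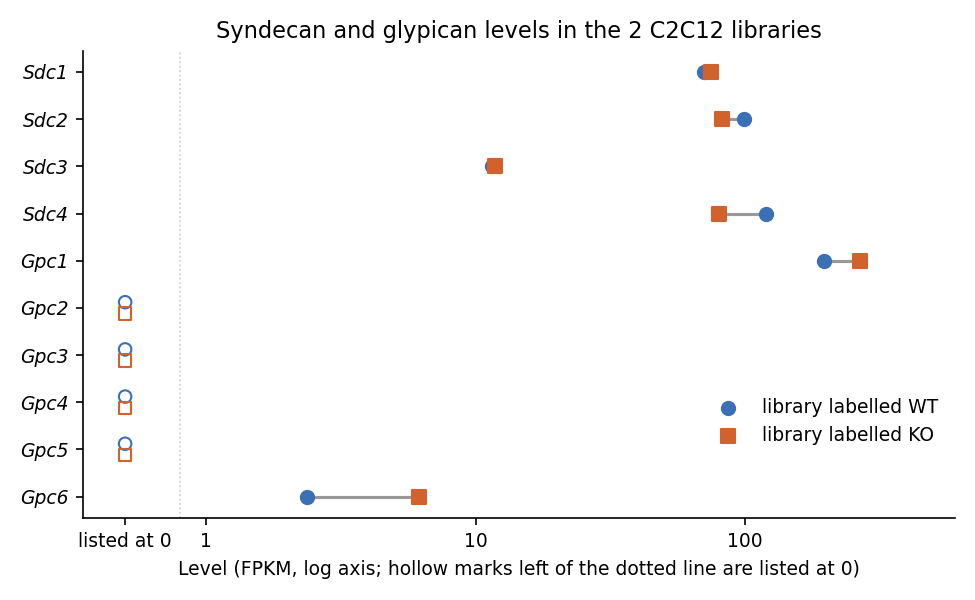
Level of each member in FPKM on a log axis, with a circle for the library labelled WT and a square for the library labelled KO. Gpc1 lies highest in both libraries, Sdc4 is shifted to the left and Gpc6 to the right in the library labelled KO, and Gpc2 to Gpc5 are listed at 0 in both.

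All 4 syndecans were expressed in both libraries. Sdc4, the syndecan that joins integrins in focal adhesions on fibronectin and activates protein kinase C alpha, was at 120 FPKM in the library labelled WT and at 80.3 FPKM in the one labelled KO. This was the largest difference downward among the members, a log2 fold change of -0.57 and a ratio of 0.669, and 7.71% of genes past the filter had a lower value. Sdc4 was the most abundant syndecan in the library labelled WT, and in the one labelled KO it stood level with Sdc2, at 0.981 times its value.

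Sdc2, a syndecan typical of mesenchymal cells, was at 98.9 FPKM in the library labelled WT and at 81.8 FPKM in the one labelled KO, a log2 fold change of -0.27. Sdc1, which is best known from epithelial and plasma cells, was at 70.2 and 75.0 FPKM, a log2 fold change of 0.093. Its level was above that of 94.2% of all genes in the library labelled WT. Of the epithelial markers, Epcam and Krt18 were listed at 0, Krt8 was at 0.037 and 0.02 FPKM and Cdh1 at 0.014 and 0 FPKM. Of the leukocyte markers, Ptprc, Adgre1 and Itgam were listed at 0 and Cd68 was at 2.85 and 1.06 FPKM. Sdc3, the other satellite cell syndecan, was at 11.5 and 11.8 FPKM, a log2 fold change of 0.029. Sdc1 and Sdc3 lay inside the interquartile range of all genes, and Sdc2 and Sdc4 below it.

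The order of the syndecans by level was Sdc4, Sdc2, Sdc1 and Sdc3 in the library labelled WT. In the library labelled KO it was Sdc2, Sdc4, Sdc1 and Sdc3. The top 3 lay closer together there: Sdc4 was 1.71 times Sdc1 in the library labelled WT and 1.07 times Sdc1 in the one labelled KO. Whether such neighbours in the order differ beyond replicate spread cannot be said from single libraries. Sdc3 stayed far below the others, with Sdc4 at 10.4 times its level in the library labelled WT and 6.82 times in the one labelled KO.

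Among the glypicans, Gpc1 carried nearly all of the signal. Gpc1, a binding partner of fibroblast growth factors that is known from muscle and brain, was the most abundant of the 10 members, at 196 FPKM in the library labelled WT and 268 FPKM in the one labelled KO. Its log2 fold change was 0.45, or 36.4% more, and 87.8% of genes past the filter had a lower value. Gpc1 was above 98.1% of all genes by level in the library labelled WT and above 98.6% in the one labelled KO.

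Gpc6, a glypican known from limb growth and synapse formation, was the only other glypican above 0. It was at 2.37 FPKM in the library labelled WT and at 6.17 FPKM in the one labelled KO, a ratio of 2.60 and a log2 fold change of 1.09. Of the genes past the filter, 253 had a higher log2 fold change. By the estimated depth these levels stand for about 420 and 930 fragments, far from the limit of detection. The 2-fold call rests on the settings: the log2 fold change was 0.60 with a pseudocount of 5, and the gene leaves the comparison when a mean of at least 5 FPKM is asked for, since its mean was 4.27 FPKM. Gpc1 was 82.9 times Gpc6 in the library labelled WT and 43.4 times in the one labelled KO.

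Gpc2, known from the developing nervous system, Gpc3, the overgrowth gene that restrains Hedgehog signalling, Gpc4, a promoter of synapse formation and Wnt and growth factor signals, and Gpc5 were all listed at 0.000. Gpc3 and Gpc4 are neighbours on chromosome X, and Gpc5 and Gpc6 are neighbours on chromosome 14. Of all genes, 33.7% were listed at 0 in both libraries, and none of 27 genes that every cell uses were among those listed at 0 in either. For the canonical transcript of Gpc4, 3 fragments would be worth about 0.020 FPKM in the library labelled WT and 0.024 FPKM in the one labelled KO. For Gpc3 the same floor was 0.043 and 0.050 FPKM. These floors come from an estimated depth and cover counting error only.

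The make-up of the pool shifted from syndecans to glypicans. The syndecans summed to 301 FPKM in the library labelled WT and 248.8 FPKM in the one labelled KO, a ratio of 0.828. The glypicans summed to 199 and 274 FPKM, which is 37.9% more. The sum of all 10 differed little, at 499 and 523 FPKM, a ratio of 1.05. Glypicans thus made up 39.8% of the summed level in the library labelled WT and 52.4% in the one labelled KO, a shift of 12.6 percentage points. By level, glypicans were thus the smaller part in the library labelled WT and the larger part in the one labelled KO. FPKM multiplied by canonical transcript length estimates reads rather than level. By that estimate glypicans made up 61.2% and 72.0%, the larger part in both libraries.

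Within this pool Gpc1 went from 39.3% to 51.2% and Sdc4 from 24.03% to 15.3%, and with the length weighting Sdc4 made up 12.7% and 7.26%. Sdc2 made up 19.8% and 15.6%, Sdc1 14.1% and 14.3%, Sdc3 2.31% and 2.25%, and Gpc6 0.474% and 1.18%. Gpc1 and Sdc4 were the members whose shares differed most: Gpc1 was 1.64 times Sdc4 in the library labelled WT and 3.34 times in the one labelled KO. Such shares do not depend on how a library was scaled. The myoblast and mesenchymal markers given above differed between the same libraries, and their part in this shift was not tested.

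**Figure D2:**
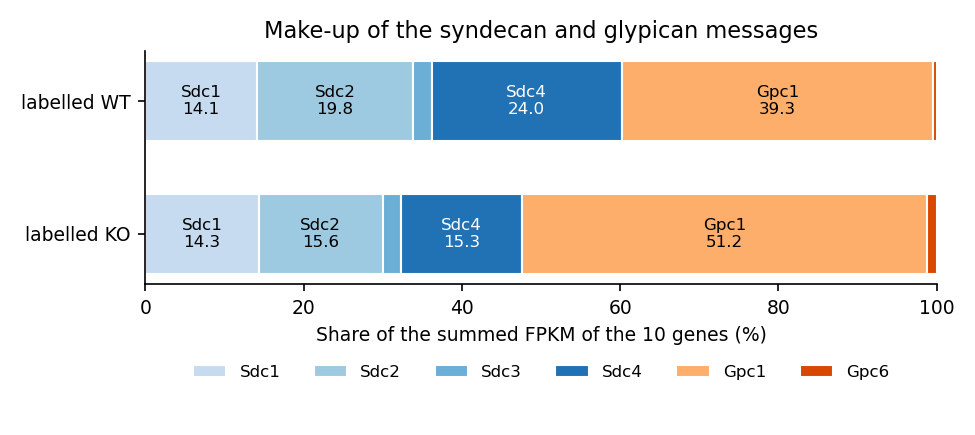
Share of each member in the summed FPKM of the 10 genes, in percent, for the libraries labelled WT and KO. The blue syndecan segments shrink from 60.2% to 47.6% of the bar, and the Gpc1 segment grows from 39.3% to 51.2%.

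**Figure D3:**
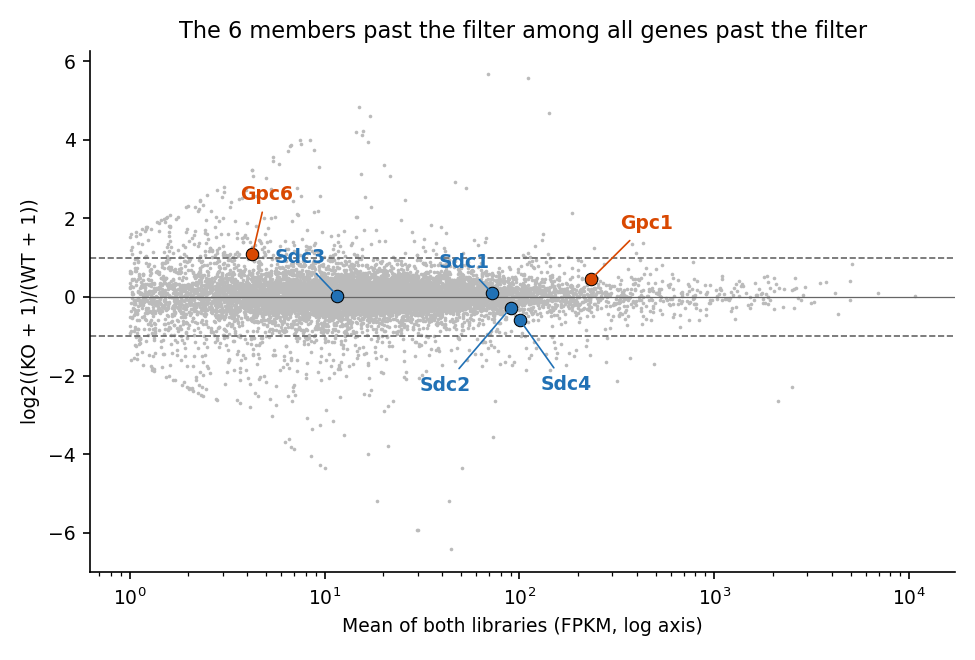
Log2 fold change against mean level in FPKM (log axis) for the 10542 genes past the filter, in grey, with the 4 syndecans in blue and the 2 glypicans in orange. Dashed lines mark 2-fold, and Gpc6 at 1.09 is the one member outside them.

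To see whether a member moved with the genes around it, each member was set beside the 20 nearest genes past the filter, 10 on either side in RefSeq order. The neighbours of Sdc4 on chromosome 2 had a median log2 fold change of -0.12, with 13 lower and 7 higher, and Sdc4 kept -0.45 after subtraction. The neighbours of Gpc1 on chromosome 1 had a median of 0.038, and Gpc1 kept 0.41. Those of Gpc6 on chromosome 14 had a median of -0.054, which left 1.14. These 3 members kept their direction and most of their size after subtraction. All 3 neighbour medians lay inside the interquartile range of all genes, so subtraction could change little. A cause shared within a region was not tested.

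Sdc2 on chromosome 15 kept -0.31 against neighbours at 0.037. Sdc1 on chromosome 12 had -0.017 left and Sdc3 on chromosome 4 had 0.17, so that the direction of Sdc1 turned, though by an amount close to 0. The genes past the filter around Gpc3 and Gpc4 on chromosome X had a median of 0.019, with 13 of 20 higher.

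**Figure D4:**
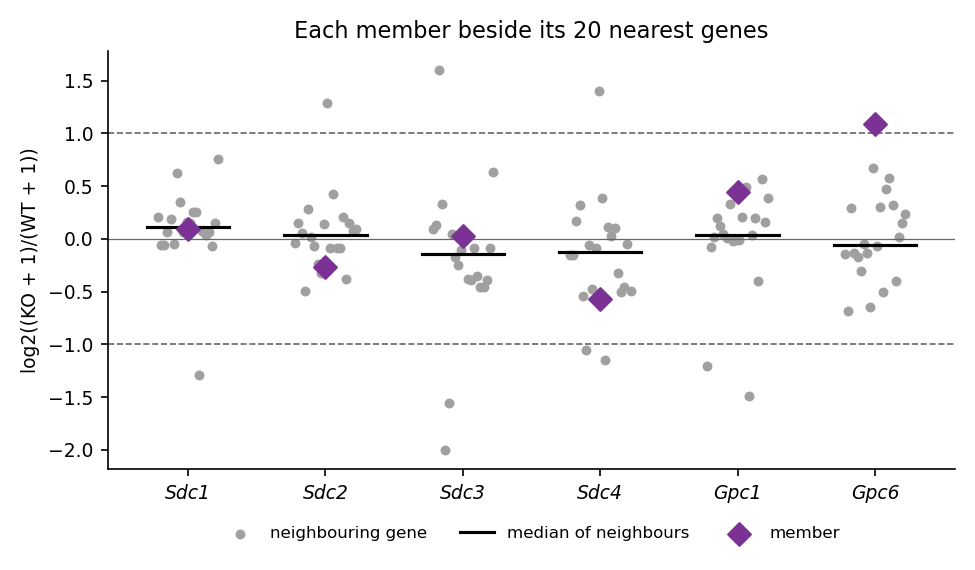
Log2 fold change of the 6 members past the filter (diamonds) and of the 20 genes nearest to each (grey points, black bar at their median). Gpc6 lies above all 20 of its neighbours, and Sdc4 and Gpc1 lie away from their neighbour medians of -0.12 and 0.038.

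With only 2 libraries, the likeness of 2 genes can be measured only as the distance between their log2 levels in both. The genes nearest to Gpc6 in this sense were Fbxo36, at 2.30 and 5.90 FPKM, Pxmp4 and Nutf2-ps1, at distances of 0.063, 0.091 and 0.094. Nearest to Sdc4 were Gstm1, at 118 and 83.1 FPKM, Puf60 and Ddx17, at 0.057, 0.090 and 0.12. These are genes of like level and like difference in these 2 libraries, and nothing more is read from them.

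Core proteins act in part through their chains, so the genes that build, cut and read heparan sulfate were described in 7 lists. Of 85 genes, 62 passed the filter, of which 7 were beyond 2-fold higher and 3 beyond 2-fold lower in the library labelled KO. These are 11.3% and 4.84%, beside 2.84% and 3.43% of all genes. The lists were chosen with earlier results of these data known. Hs3st1, Tiam1 and Hpse were under 1 FPKM in 1 library and passed the filter through the other. No result is read from the gap between these shares. The median over the 62 was 0.22, and 46 were higher and 16 lower, where 50.7% of all genes past the filter were higher. The single lists hold from 6 to 11 genes past the filter, too few to set against the shares of all genes.

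The chain is begun on a serine of the core protein by xylosyltransferase and extended by the exostosins. Of the 10 genes of this list past the filter, 0 were beyond 2-fold, 9 were higher and 1 lower, and the median was 0.22. Of all genes past the filter, 50.7% were higher. Ext2, a subunit of the polymerase, was at 43.1 and 51.3 FPKM. Pxylp1, the phosphatase that removes the phosphate from the linker xylose, was at 25.98 and 46.6 FPKM. The first enzyme was supplied by Xylt2, at 7.24 and 8.37 FPKM, with Xylt1 listed at 0 in both libraries. Messages of genes that start and lengthen chains were thus present in both libraries, and none past the filter differed beyond 2-fold. Proteins and chains were not measured.

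Enzymes that sulfate and trim the chain had a median of 0.43 over 8 genes, with 7 higher and 1 lower. Over all genes past the filter, 50.7% were higher. Hs3st1, which adds the rare 3-O-sulfate needed for antithrombin binding, was at 0.357 FPKM in the library labelled WT and at 17.3 FPKM in the one labelled KO, a log2 fold change of 3.75 and the only one of the list beyond 2-fold. Ndst1, the main N-sulfating enzyme, was at 43.2 and 57.4 FPKM. Sulf2, the extracellular enzyme that removes 6-O-sulfates, was at 25.7 and 39.7 FPKM. Of the 18 genes of the list, 10 did not pass the filter, among them all 6 of the other 3-O-sulfotransferases, of which Hs3st3a1 came closest at 1.02 and 0.857 FPKM.

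Syndecans can also carry chondroitin sulfate, which grows from the same linker. Of 11 genes of that branch past the filter, 2 were beyond 2-fold higher and 0 lower, beside 2.84% and 3.43% of all genes. The 11 had a median of 0.33. The higher count was 0 with a pseudocount of 5, and 1 both with a mean of 5 FPKM or more and after subtraction of neighbour medians. Csgalnact1, which commits the linker to chondroitin, was at 9.74 and 21.2 FPKM, a log2 fold change of 1.05. Chst15, which makes disulfated chondroitin, was at 1.98 and 7.21 FPKM, a log2 fold change of 1.46 among neighbours whose median was 0.48. Chpf and Chpf2, polymerising factors and the most abundant genes of the list, were at 31.9 and 56.1 FPKM and at 48.2 and 43.4 FPKM.

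Of 7 genes that shed core proteins or cut chains, 2 were beyond 2-fold lower and 0 higher, beside 3.43% and 2.84% of all genes. The lower count was 1 with a pseudocount of 5 and 1 with a mean of 5 FPKM or more, and the higher count was 1 after subtraction of neighbour medians. Notum, a secreted hydrolase that inactivates Wnts and has been described to cut glypican anchors, was at 12.6 FPKM in the library labelled WT and 1.42 FPKM in the one labelled KO, a log2 fold change of -2.49. Hpse, the heparanase, was at 2.43 and 0.282 FPKM, a log2 fold change of -1.42. Mmp14, a membrane protease that can shed Sdc1, was at 228 and 226 FPKM and was the most abundant gene of the list. Mmp2 was at 40.3 and 56.6 FPKM, with a log2 fold change of 0.48 among neighbours on chromosome 8 whose median was -0.96.

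The cytoplasmic tails of syndecans bind scaffold and signalling proteins. Of 9 such partners past the filter, 1 was beyond 2-fold lower and 0 higher, beside 3.43% and 2.84% of all genes. The 9 had a median of 0.062. Tiam1, an activator of the small GTPase Rac1 that binds syndecans, was at 13.97 FPKM in the library labelled WT and 0.022 FPKM in the one labelled KO, a log2 fold change of -3.87. Gipc1, which links Sdc4 to endocytosis, was at 142 and 71.3 FPKM, a log2 fold change of -0.98, and its neighbours on chromosome 8 were lower too, with a median of -1.36. Actn1, an actin crosslinker that binds the tail of Sdc4, was at 113 and 131 FPKM. Sdcbp, or syntenin, which binds the tails of all syndecans, was at 96.2 and 103 FPKM. Prkca, the kinase that Sdc4 activates, was at 19.96 and 20.9 FPKM.

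Of 6 other heparan sulfate proteoglycans past the filter, 5 were higher, where 50.7% of all genes were, with a median of 0.54. Nrp1, a co-receptor for VEGF and semaphorins that can carry a chain, was at 7.07 and 22.03 FPKM, a log2 fold change of 1.51 and the only one beyond 2-fold. Hspg2, or perlecan, of the basement membrane, was at 38.4 and 58.3 FPKM. Cd44, a hyaluronan receptor with chain-bearing isoforms, was at 55.2 and 53.6 FPKM.

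Among heparan sulfate-binding growth factors and their receptors, 3 of 11 genes past the filter were beyond 2-fold higher and 0 lower. Of all genes, 2.84% and 3.43% were, and the median of the list was 0.16. The higher count was 1 with a pseudocount of 5, and 2 under both scalings and after subtraction of neighbour medians. Ptn, or pleiotrophin, a ligand of Sdc3, was at 12.9 and 93.9 FPKM, a log2 fold change of 2.77. Fgf10 was at 8.95 and 22.4 FPKM, a log2 fold change of 1.23. Cxcl12, a chemokine held by heparan sulfate, was at 94.6 and 191 FPKM, at 1.003 only just past the line. Fgf7, second to Cxcl12 in the list by the mean of both libraries, was at 82.6 and 92.2 FPKM. Fgfr1, the most abundant fibroblast growth factor receptor of the list, was at 59.6 and 64.1 FPKM, with Fgfr4 at 0.012 FPKM in the library labelled WT and listed at 0 in the one labelled KO. Mdk, the relative of Ptn, was at 0.183 and 0.135 FPKM.

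**Figure D5:**
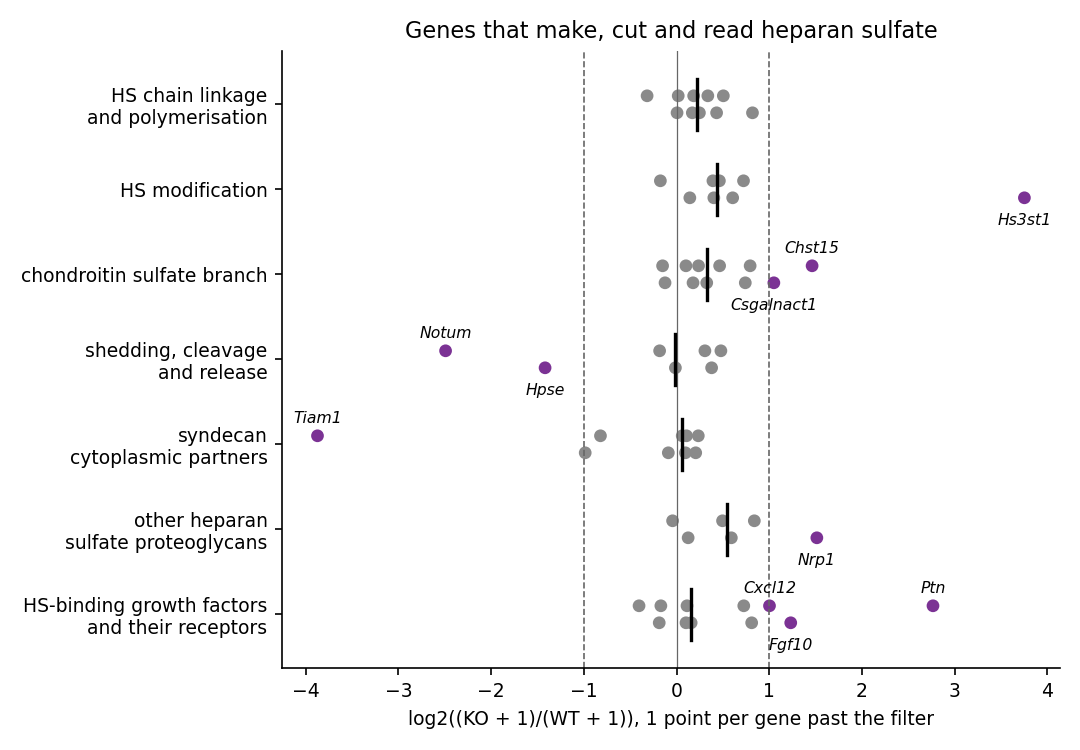
Log2 fold change of the 62 genes past the filter in 7 lists, 1 point per gene, with a black bar at the median of each list and dashed lines at 2-fold. Named purple points are the 7 genes beyond 2-fold higher and the 3 beyond 2-fold lower in the library labelled KO, from Tiam1 at -3.87 to Hs3st1 at 3.75.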

How the data were processed

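Total RNA of C2C12 cells was made into 1 stranded poly(A) library per genotype. The authors deposited a table for each library that pairs symbols with values and names no unit. The deposited values were taken as FPKM, since they sum to 568410 and 574144 over genes and step with transcript length at low levels. The methods name TPM, and a TPM table of part of the genes would look alike and would differ by 1 factor per library. The submitters' notes list Trim Galore 0.6.6, STAR 2.7.9a, RSEM 1.3.3 and GRCm38, whereas the methods name another STAR version and GRCm39. The library kits given in these sources differ too.

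Of 21853 rows, 24 were repeats of a symbol, of which only the highest by mean was used. The pseudocount was 1 and the filter a mean of at least 1 FPKM. A fragment was valued from the most frequent product of value and canonical transcript length (GENCODE vM39) among values from 0.008 to 0.06 in transcripts over 1500 bases, a range chosen after the values were seen. Positions came from RefSeq on GRCm38.p6 and were used for gene order. Symbols were matched for 21260 genes. All members and Gne were named, and of each list the genes beyond 2-fold and the 2 most abundant. So were the 3 genes nearest to Gpc6 and to Sdc4. Xylt1, Xylt2, Hs3st3a1, Sdcbp, Prkca, Fgfr1, Fgfr4, Mdk and markers within 2-fold or at 0 fall outside this rule and were named after their values were seen. Members and lists were chosen with earlier results of these data known. The calculation was checked on simulated libraries. No test was made, because each genotype had 1 library. Python 3.11.15, numpy 2.4.6 and pandas 2.3.3 were used.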

Additional observations from a re-analysis of the deposited data

How the results depend on the processing

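With 1 library per genotype, leaving out a replicate was not possible, and no alternative here speaks to biological spread. No paired analysis was possible because each genotype has 1 library and no test was made. A log2 value was taken as moved beyond the interquartile range of all genes, 0.44, a count beyond 1.5 times and a share beyond 5 percentage points. The count of members beyond 2-fold higher went from 1 to 0 with a pseudocount of 5, where Gpc6 had 0.60, and to 0 with a mean of at least 5 FPKM, which leaves Gpc6 out. It stayed at 1 with a pseudocount of 0.1, without a filter, under both scalings and after subtraction of neighbour medians. The count of members beyond 2-fold lower was 0 throughout. Scaling factors were 0.995 and 0.990 and moved no member. Weighting by canonical transcript length estimates numbers of reads rather than levels and leans on the long Gpc1 transcript. With it, glypicans made up 61.2% in the library labelled WT and 72.0% in the one labelled KO. The direction of the shift was the same. Of 224 comparisons with an alternative, 200 stayed within these limits and 24 moved. With a pseudocount of 5, the 299 higher and 362 lower genes of the whole table became 102 and 176. The stricter filter at 5 FPKM gave 145 and 221.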
